A study of Gallus gallus with 3 samples.

Results

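Serpins and cathepsins are 2 families that set how much proteolysis a tissue carries out, and their RNA was measured in chick endoderm, from which the lining of the gut forms. The genes were taken by their names in the array's annotation: symbols that begin with SERPIN, symbols made of CTS and a single letter, and LGMN. This gave 27 genes of 13008 named genes on the array, of which 14 were serpins and 13 were cathepsins with legumain, and they were read by 39 probe sets. The study hybridised 1 Affymetrix Chicken Genome Array to each of 3 tissues. Foregut endoderm was taken anterior to the intestinal portal of embryos at Hamburger-Hamilton stages 10 to 11. Mid/hindgut endoderm was taken at stages 8 to 10 from the gut posterior to the future small intestine. Early endoderm was the whole definitive endoderm of 500 embryos at stages 4 to 5. The labels name no strain, genotype or agent that differs between the groups. Collections at 4 hour steps during 1 day were pooled, and how many embryos the later pools held is not stated, so each group is 1 sample (n = 1), no difference has a replicate check and no p-value was computed. To remove mesenchyme, the later tissues were kept for 30 minutes in 0.03% collagenase, whereas early endoderm was lifted off with a needle. Stage, position and dissection therefore cannot be told apart in the comparisons with early endoderm. Foregut and mid/hindgut also differ in their range of stages, so stage and position cannot be told apart between them either.

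Cathepsins are proteases that work mainly in the acid lumen of lysosomes and endosomes. Most of them are cysteine proteases related to papain, CTSD and CTSE are aspartic proteases, and CTSA and CTSG are serine enzymes. Legumain, LGMN, is a lysosomal cysteine protease that cuts after asparagine and trims several cathepsins to their mature forms. Serpins carry an exposed loop that baits a protease, and most trap the enzyme that cuts it. Some act in blood plasma on clotting and complement proteases, clade B serpins act mainly inside cells, and SERPINH1 inhibits no protease and serves as a chaperone for collagen. These roles are known chiefly from mammals. In birds, extraembryonic endoderm of the yolk sac takes up yolk and degrades it in lysosomes.

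The deposited signals had medians of 30.6 in foregut, 32.7 in mid/hindgut and 36.6 in early endoderm. Each array was scaled to a common trimmed mean, and signals below 22.1 units were set to that floor. A fold against an array below the floor is a lower bound and is written as "at least". Genes above the floor on at least 1 of the arrays compared are called measured, and those at least 2-fold apart are counted. The spread between probe sets of the same gene, over 4134 genes, put the technical standard deviation of a log2 difference at 0.43 for foregut against early endoderm, 0.31 for mid/hindgut against early endoderm and 0.36 for foregut against mid/hindgut. This covers probe noise and not the variation between pools. Levels are scaled signals, which are compared between tissues for the same probe set and not between genes. In a bulk sample, fewer cells of a type and less RNA per cell cannot be told apart.

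Of the 13 cathepsins with LGMN, 9 were above the floor on all 3 arrays, CTSK on 2, and CTSE, CTSG and CTSS on none. Of the 14 serpins, 5 were above it on all arrays, 4 on 1 or 2 arrays and 5 on none. In all, 70.4% of these genes were above the floor on at least 1 array, against 85.6% of all named genes. The 19 measured genes were sorted into 3 groups by the array with the highest signal, whatever the size of the difference. Early endoderm was highest for 7 of them (LGMN, CTSB, CTSC, CTSV, CTSZ, SERPINB6 and SERPINE2). Mid/hindgut was highest for 7 others (CTSO, SERPINA10, SERPINB1, SERPIND1, SERPINF1, SERPINH1 and SERPINI1). Foregut was highest for CTSA, CTSD, CTSH, CTSK and SERPING1. Several placements rest on differences below the technical standard deviation. For SERPINB6, foregut and early endoderm differed by -0.11 in log2, and for SERPINI1, foregut and mid/hindgut by -0.14. That of SERPINF1 depends on the probe set.

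Among the proteases, LGMN and 4 papain-type cathepsins had their highest signal in early endoderm. LGMN had a signal of 1394 in foregut and 1250.1 in mid/hindgut, against 5947 in early endoderm. Both later tissues lay far below early endoderm and close to each other: LGMN was 4.26-fold lower in foregut and 4.76-fold lower in mid/hindgut, and the later tissues were 1.11-fold apart. LGMN has a single probe set on the array, so no second reading within an array exists for it. Both differences exceeded the technical standard deviations of 0.43 and 0.31. LGMN stayed at least 2-fold lower in both tissues under every alternative that gave it a value, with log2 differences between -2.40 and -1.51 in foregut and between -2.51 and -2.23 in mid/hindgut.

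CTSZ, a lysosomal carboxypeptidase also called cathepsin X, was 171 in foregut and 407 in mid/hindgut, against 818 in early endoderm. The tissues formed 3 separate levels, with foregut lowest. CTSZ was 4.78-fold lower in foregut than in early endoderm and 2.38-fold lower in foregut than in mid/hindgut. The mid/hindgut signal was 2.01-fold below early endoderm, at a log2 difference of -1.01 that lay on the 2-fold limit and became -0.999 after quantile normalization. CTSZ was the only member with at least 2-fold differences in all 3 comparisons. Scaling on hybridisation controls made the log2 difference between foregut and mid/hindgut -0.65.

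CTSB, a cathepsin that acts both as an endopeptidase and as a carboxypeptidase, was 1148 in foregut and 790.2 in mid/hindgut, against 1994 in early endoderm. A second probe set read 1050.0 in foregut, 778 in mid/hindgut and 2036 in early endoderm, which is the same order with nearly the same values. The gene was 2.52-fold lower in mid/hindgut, and 1.74-fold apart in foregut, inside the 2-fold limit. CTSB was past that limit in foregut, at -1.10 in log2, when the deposited values were used without scaling.

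CTSV, which the current gene table also lists as CTSL, is a cathepsin L-type endopeptidase. Its signal was 2429.9 in foregut and 2367 in mid/hindgut, against 4969 in early endoderm. The later tissues were nearly level, 2.05-fold and 2.10-fold below early endoderm, just past the 2-fold limit. In foregut it came inside 2-fold after quantile normalization and when hybridisation controls set the scale, at -0.45 in log2. CTSC, a dipeptidyl peptidase that activates granule serine proteases, was 831 in foregut and 1422 in mid/hindgut, against 2237 in early endoderm. Its order was that of CTSZ, with foregut lowest: 2.69-fold lower in foregut and 1.57-fold apart in mid/hindgut. The foregut log2 difference of CTSC was -0.85 when hybridisation controls set the scale.

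**Figure D1:**
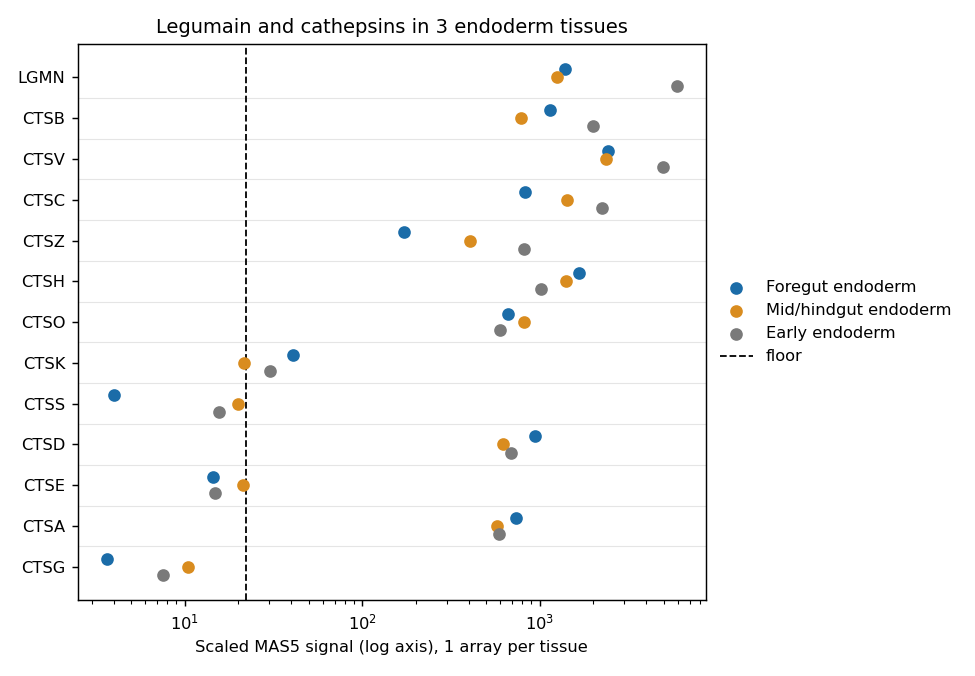
Scaled signal of LGMN and the 12 cathepsins in foregut, mid/hindgut and early endoderm, 1 array per tissue, on a log axis; the dashed line is the floor of 22.1. The top 5 genes lie furthest right in early endoderm, with LGMN at 5947 there against 1394 in foregut and 1250.1 in mid/hindgut, while CTSS, CTSE and CTSG lie left of the floor in every tissue.

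The remaining measured cathepsins were within 2-fold in all 3 comparisons. CTSH, an aminopeptidase, was the highest above early endoderm among them, at 1665 in foregut and 1407 in mid/hindgut, against 1014 in early endoderm. CTSH was thus 1.64-fold and 1.39-fold apart, and 1.30 in log2 in foregut when scaled on hybridisation controls. CTSD, the main lysosomal aspartic protease, read 943 in foregut, 623 in mid/hindgut and 691 in early endoderm, and a dimmer probe set for it read 88.4, 89.9 and 86.1 in the same order. The remaining CTSD probe set lay near or below the floor. The dimmer of the first pair was flat where the brighter one was 1.51-fold apart between foregut and mid/hindgut. CTSA, a serine carboxypeptidase that also stabilises lysosomal galactosidase and neuraminidase, was 736 in foregut, 577 in mid/hindgut and 588 in early endoderm. Its partner galactosidase, GLB1, was likewise within 2-fold, at 436 in foregut, 375 in mid/hindgut and 342 in early endoderm.

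CTSO, a widely expressed papain-type member, had 659.5 in foregut, 818 in mid/hindgut and 599.7 in early endoderm by a probe set that may bind several transcripts. A second CTSO probe set lay below the floor on every array, so the level of CTSO rests on the first. CTSK, a collagen-degrading cathepsin of osteoclasts, was low in all tissues, at 40.7 in foregut, below the floor in mid/hindgut and at 30.3 in early endoderm. CTSS, CTSE and CTSG, known from antigen-presenting cells, stomach epithelium and granulocytes, had all their probe sets below the floor in the 3 tissues. In the current chicken gene table CTSK and CTSS neighbour each other and overlap.

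The counts summarise these values. In foregut against early endoderm, 10 cathepsins with LGMN were measured, 4 were at least 2-fold lower (LGMN, CTSC, CTSV and CTSZ) and none was higher. Over all 10800 measured genes in that comparison, 6.49% were at least 2-fold lower and 10.6% at least 2-fold higher. That split, 1145 higher and 701 lower, was 742 and 1210 without scaling and 2996 and 319 with scaling on hybridisation controls. The median log2 difference of the cathepsins was -0.33, beside 0.08 over all genes. Without probe sets that may bind several transcripts, which leaves no value for LGMN and CTSC, 2 were lower and the median was 0.32. In mid/hindgut against early endoderm 4 of 10 were again lower (LGMN, CTSB, CTSV and CTSZ) and none higher, where 5.13% of 10745 genes were lower and 8.12% higher. Without scaling the split of 872 higher and 551 lower genes was 629 and 849. The median was -0.55, beside 0.03 over all genes. In foregut against mid/hindgut, 1 of 10, CTSZ, was lower and none higher, where 5.74% of 10906 genes were lower and 6.37% higher. This split of 695 higher and 626 lower genes was 2453 and 242 when hybridisation controls set the scale. By class, 3 of 7 measured papain-type cathepsins were lower in each comparison with early endoderm, whereas CTSA and CTSD were within 2-fold. The comparisons with early endoderm share that array, so its value enters both.

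Across the whole family set, serpins included, 4 of 18 measured genes were lower and none higher in foregut against early endoderm. Over all genes 6.49% were lower and 10.6% higher there. The split of the family set was 1 higher and 3 lower after quantile normalization and 5 higher and 2 lower with scaling on hybridisation controls. In mid/hindgut against early endoderm 3 of 19 were higher and 4 lower, where 8.12% of all genes were higher and 5.13% lower. In foregut against mid/hindgut 3 of 19 were lower and none higher, where 5.74% of all genes were lower and 6.37% higher. The family set had 1 lower and 3 higher there with scaling on hybridisation controls. That scaling moved the median of all genes from 0.08 to 0.62 in log2 for foregut against early endoderm. Measured relative to the median of all genes, LGMN lay between -2.18 and -2.13 in foregut over the 4 scalings, CTSZ between -2.35 and -2.29, CTSC between -1.52 and -1.47, and CTSV between -1.12 and -1.05.

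**Figure D2:**
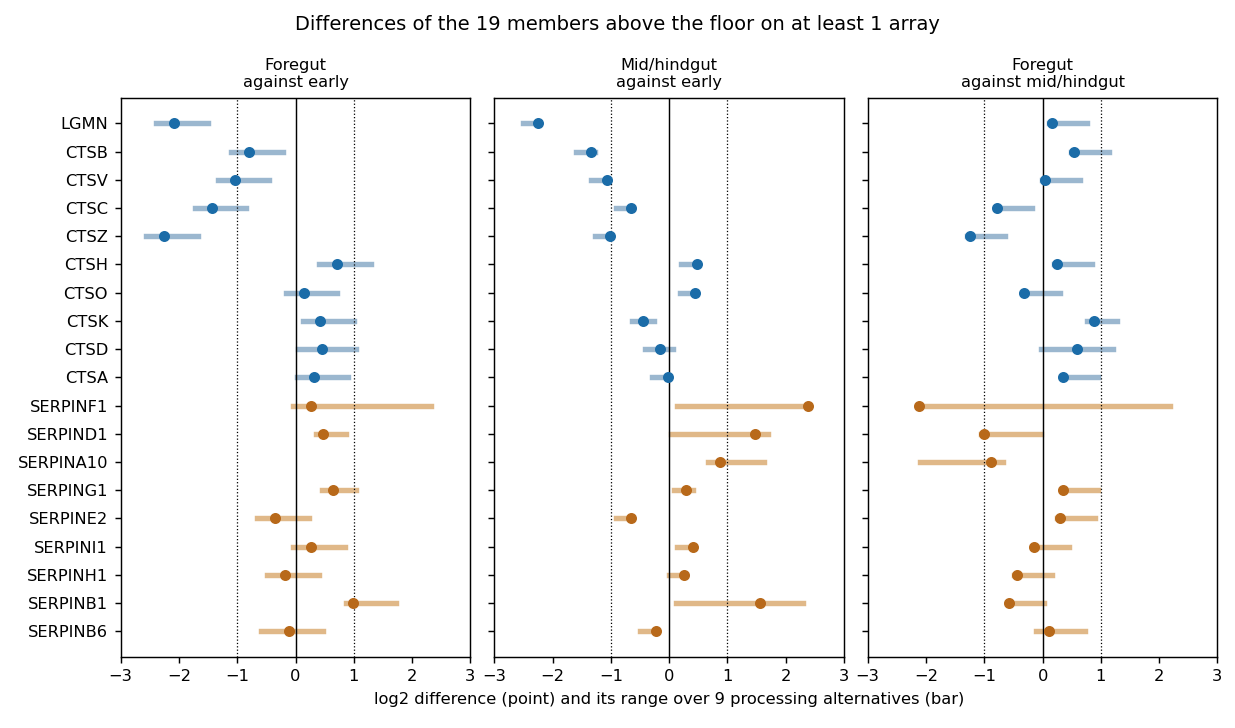
Log2 differences of the 19 measured genes in the 3 comparisons; points are the reported values, bars span the 9 processing alternatives and dotted lines mark 2-fold. LGMN and CTSZ stay left of the 2-fold line in foregut against early endoderm over their whole bars, while the SERPINF1 bars run from below 0 to above 2 in both comparisons of foregut.

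Of the 4 plasma-type serpins measured in mid/hindgut against early endoderm, SERPINF1 and SERPIND1 were at least 2-fold higher, and both calls depended on the processing. SERPINA10 and SERPING1 were not called. With early endoderm below the floor, their folds are lower bounds that fall short of 2-fold. SERPINF1, pigment epithelium-derived factor, is a secreted serpin that inhibits no protease and restrains blood vessel growth. By the probe set with the highest mean, SERPINF1 was 78.2 in foregut and 339 in mid/hindgut, against 65.1 in early endoderm. Mid/hindgut stood apart from the others, 5.21-fold above early endoderm, and foregut was 4.33-fold below mid/hindgut. A second probe set had the same pattern, with 75.6 in foregut, 250.3 in mid/hindgut and 68.8 in early endoderm.

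The third SERPINF1 probe set gave a different order. It read 216 in foregut and 47.4 in mid/hindgut, against 43.0 in early endoderm, a log2 difference of 2.33 for foregut against early endoderm and of 2.19 for foregut against mid/hindgut. The agreeing pair are of types that may bind several transcripts of a gene or of related genes, and the third is not. Which of them reads SERPINF1 transcripts was not tested. The call that mid/hindgut was highest therefore rests on 2 of 3 probe sets, and without the pair the difference for mid/hindgut against early endoderm was 0.14 in log2.

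**Figure D3:**
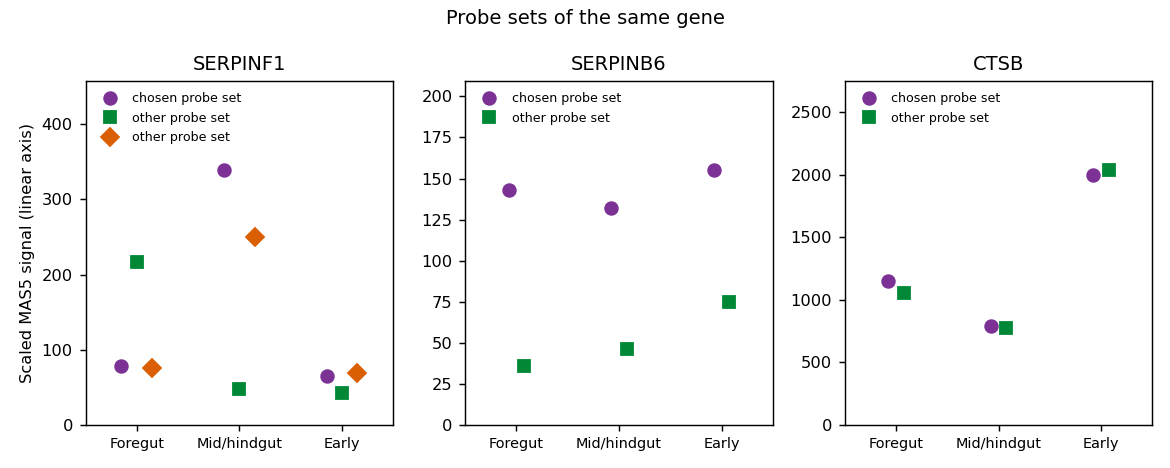
Scaled signal of every probe set of SERPINF1, SERPINB6 and CTSB in foregut, mid/hindgut and early endoderm on linear axes that start at 0. For SERPINF1 a pair of probe sets is highest in mid/hindgut (339 and 250.3) and the other in foregut (216), whereas both CTSB probe sets lie together in each tissue.

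SERPIND1, heparin cofactor II, is a plasma inhibitor of thrombin. It had a signal of 30.6 in foregut and 61.6 in mid/hindgut, and lay below the floor in early endoderm. SERPIND1 was at least 2.78-fold higher in mid/hindgut than in early endoderm and 2.02-fold lower in foregut than in mid/hindgut, on signals no more than 3 times the floor. The second of these calls, at -1.01 in log2, was lost under 4 alternatives, with -0.97 after quantile normalization, -0.99 without a floor and -0.41 with scaling on hybridisation controls. A higher floor, at the 60th percentile, made the first difference 0.03 in log2 and the second -0.03. SERPINA10, which inhibits clotting factor X when bound to protein Z, was above the floor in mid/hindgut alone, at 40.8, so that it was at least 1.84-fold above each of the other tissues. It passed 2-fold in both comparisons with a floor at the 20th percentile and without a floor. There it reached 1.62 in log2 for mid/hindgut against early endoderm and -2.11 for foregut against mid/hindgut. SERPING1, the inhibitor of the C1 complement proteases, was 34.7 in foregut, 27.2 in mid/hindgut and below the floor in early endoderm. Its folds over early endoderm are lower bounds, and it did not reach 2-fold in any comparison. With scaling on hybridisation controls it was 1.05 in log2 in foregut against early endoderm.

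SERPINB1, a clade B serpin that inhibits neutrophil serine proteases, was 43.8 in foregut and 65.4 in mid/hindgut, and below the floor in early endoderm. Both later tissues were above early endoderm, by at least 1.98-fold in foregut and by at least 2.95-fold in mid/hindgut. The foregut value is a lower bound just short of the 2-fold limit. In foregut SERPINB1 passed the limit under 4 of the alternatives, among them quantile normalization, and in mid/hindgut the higher floor brought it to 0.11 in log2. SERPINB6, a cytosolic serpin of many tissues, was 143 in foregut, 132 in mid/hindgut and 155 in early endoderm. A dimmer SERPINB6 probe set is of a type that may bind several transcripts. It read 36.1 in foregut, 46.4 in mid/hindgut and 75.1 in early endoderm, a log2 difference of -1.06 in foregut. Both probe sets of SERPINB6 had their highest signal in early endoderm, and the size of the difference was not shared.

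The other clade B genes were not above the floor in any tissue. They were SERPINB2, a plasminogen activator inhibitor with 4 probe sets here, SERPINB5, known as maspin, SERPINB12, and SERPINB10B, a chicken chromatin serpin also called MENT. In the current gene table all 6 SERPINB genes lie in 1 run on a chromosome, together with the ovalbumin genes. Of this run, SERPINB1 and SERPINB6, which are next to each other, were the only measured genes among the 6. The SERPINB1 and SERPINB6 signals differed in pattern, since early endoderm was below the floor for SERPINB1 but not for SERPINB6.

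**Figure D4:**
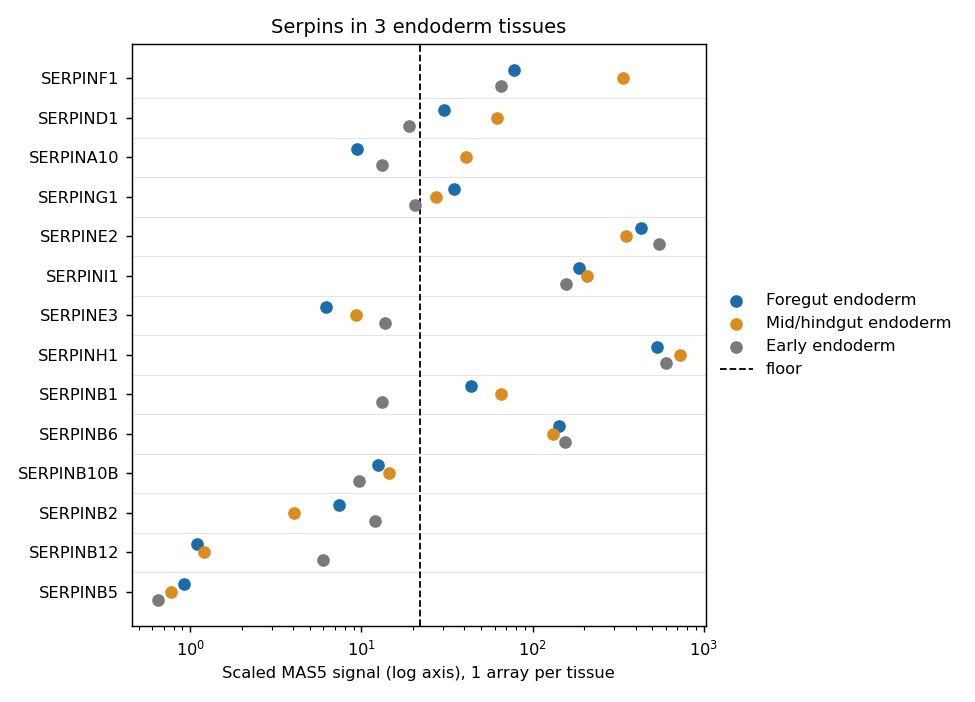
Scaled signal of the 14 serpins in foregut, mid/hindgut and early endoderm, 1 array per tissue, on a log axis; the dashed line is the floor of 22.1. SERPINF1, by its probe set with the highest mean, SERPIND1 and SERPINA10 lie furthest right in mid/hindgut, while SERPINH1, SERPINE2, SERPINI1 and SERPINB6 have their tissues close together.

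The serpins of the cell surface and the collagen chaperone were within 2-fold in all 3 comparisons. SERPINH1, the endoplasmic reticulum chaperone of procollagen, was 531 in foregut, 722 in mid/hindgut and 602 in early endoderm. Its largest difference was 1.36-fold, between foregut and mid/hindgut, and its sign changed when arrays were scaled on hybridisation controls. SERPINE2, protease nexin 1, which inhibits thrombin and plasminogen activators at the cell surface, was 431 in foregut and 351 in mid/hindgut, against 551 in early endoderm. SERPINI1, neuroserpin, an inhibitor of tissue plasminogen activator, was 188 in foregut, 207 in mid/hindgut and 156.5 in early endoderm. SERPINE3, a relative of SERPINE2 whose function is less well known, was below the floor throughout.

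Counted together, 8 serpins were measured in foregut against early endoderm and none reached 2-fold with the floor applied. Their median log2 difference was 0.26, beside 0.08 over all genes. SERPINB1, SERPIND1 and SERPING1 entered this median only through foregut, so each could only be positive. The 5 serpins above the floor on all arrays lay between -0.35 and 0.26 in log2. Over all genes 10.6% were higher and 6.49% lower in that comparison. In mid/hindgut against early endoderm 3 of 9 were higher (SERPINF1, SERPIND1 and SERPINB1) and none lower. Over all genes 8.12% were higher and 5.13% lower. The median of the 9 serpins was 0.41, beside 0.03 over all genes. SERPINA10, SERPINB1, SERPIND1 and SERPING1 entered it only through mid/hindgut, so each could only be positive. The serpins above the floor on all arrays lay between -0.65 and 2.38 in log2. In foregut against mid/hindgut 2 of 9 were lower (SERPINF1 and SERPIND1) and none higher, and over all genes 5.74% were lower and 6.37% higher. The median of the serpins was -0.44 there, and 0.16 with scaling on hybridisation controls. Over all genes the same medians were 0.02 and 0.60. SERPINA10 entered this comparison only through mid/hindgut. Of the 3 genes higher in mid/hindgut, SERPIND1 and SERPINB1 entered the comparison only through that tissue, since early endoderm was under the floor for both, so their count is a description.

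The proteases and partners of these genes were read from lists of related genes, whose counts stand beside all-gene shares of 10.6% higher and 6.49% lower in foregut and of 8.12% higher and 5.13% lower in mid/hindgut, each against early endoderm. Of 28 measured lysosomal hydrolases other than cathepsins, 6 were at least 2-fold higher in foregut than in early endoderm and none was lower, with a median of 0.36. Without scaling that count was 1 higher and 1 lower, and the median was 0.07. TPP1, a lysosomal tripeptidyl peptidase, was 469 in foregut and 224.5 in mid/hindgut, against 199 in early endoderm, 2.36-fold higher in foregut, or 0.93 in log2 unscaled. HYAL2, a hyaluronidase, was 2.57-fold higher in foregut, at 223, against 86.8 in early endoderm. In mid/hindgut 3 of 27 hydrolases were higher and none lower than in early endoderm, a share near the 8.12% of all genes. The list was led by DPP4, a peptidase of intestinal brush borders, at 8.63-fold, although the median of its probe sets gave 0 in log2. The DPP4 signal in early endoderm lay just above the floor. Among hydrolases above the floor on all 3 arrays, 2 of 26 were higher in mid/hindgut. PLA2G15, the lysosomal phospholipase, was 2991 in mid/hindgut and 941 in early endoderm, 3.18-fold higher. The difference between this list and the cathepsins was not tested.

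Genes of the lysosomal membrane, proton pump and sorting route were mostly level, with 3 of 39 higher and 1 lower in foregut than in early endoderm and 1 higher and 1 lower in mid/hindgut. Their medians were -0.07 in foregut and -0.01 in mid/hindgut. LAPTM4B, a membrane protein of lysosomes and endosomes, was 96.7 in foregut and 24.2 in mid/hindgut, against 36.6 in early endoderm, 2.64-fold higher in foregut than in early endoderm and 4.01-fold higher than in mid/hindgut. With the higher floor both LAPTM4B differences were 0.68 in log2. MITF, a transcription factor of the family that governs lysosomal genes, was 78.7 in foregut and 108 in mid/hindgut, against 548 in early endoderm, 6.97-fold and 5.06-fold lower. TFEB, of the same family, was higher in foregut, at 123 against 34.1 in early endoderm, a 3.62-fold difference, and was 58.8 in mid/hindgut. GNPTAB, an enzyme that tags hydrolases for the lysosome, was 1865 in foregut and 1812 in mid/hindgut, against 857 in early endoderm, 2.18-fold and 2.11-fold higher, or 0.82 in log2 in each without scaling. The median of the GNPTAB probe sets gave 0.56 in log2 in foregut and 0.93 in mid/hindgut.

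**Figure D5:**
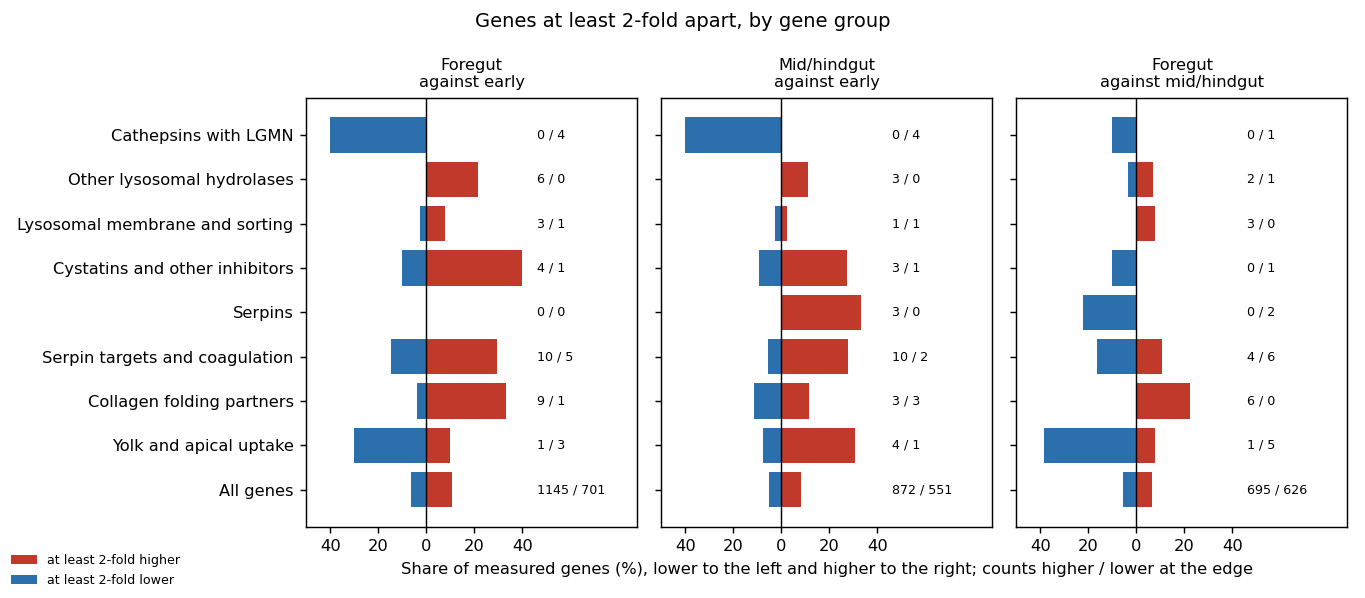
Share of measured genes at least 2-fold higher (red, to the right) or lower (blue, to the left) in each comparison, by gene group, with counts at the right edge and all genes at the bottom. Cathepsins with LGMN extend to the left in both comparisons with early endoderm (4 of 10 each), while the other lysosomal hydrolases extend to the right (6 of 28 and 3 of 27). Over all genes 6.49% and 5.13% were lower and 10.6% and 8.12% higher, and 3 of 27 is near the last share. Without scaling the 6 of 28 became 1 higher and 1 lower.

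Cystatins, the inhibitors of papain-type cathepsins, included 1 gene at least 2-fold apart. CSTA, a cytosolic cystatin, was 55.5 in foregut and 145 in mid/hindgut, against 963 in early endoderm. It formed the same 3 levels as CTSZ, with foregut lowest, 17.4-fold lower in foregut and 6.63-fold lower in mid/hindgut than in early endoderm. Between foregut and mid/hindgut CSTA was -1.39 in log2, or -0.79 when hybridisation controls set the scale. CSTB, its relative, was 649.6 in foregut, 443 in mid/hindgut and 836 in early endoderm, within 2-fold. CST3, the secreted cystatin C, which in mammals also inhibits legumain, was 4101 in foregut, 4341 in mid/hindgut and 2844 in early endoderm, also within 2-fold. The list that held them counted 4 of 10 genes higher and 1 lower in foregut and 3 of 11 higher and 1 lower in mid/hindgut. The higher genes of the list are not cystatins. SPINK5, an inhibitor of serine proteases, led them at 2967.5 in foregut and 1657 in mid/hindgut, against 168 in early endoderm, 17.6-fold and 9.84-fold higher. LXN, an inhibitor of metallocarboxypeptidases, and A2M, a plasma trap for many proteases, were each higher in both later tissues, LXN by 3.01-fold in foregut and 2.95-fold in mid/hindgut. A2M was higher by 2.63-fold and 4.71-fold in the same order, and the median of its probe sets gave 0.70 in log2 in foregut. With the higher floor LXN came to 0.47 in log2 in foregut and 0.44 in mid/hindgut.

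For the serpins, the list of target proteases, receptors and clotting factors had 10 of 34 measured genes higher and 5 lower in foregut than in early endoderm, and 10 of 36 higher and 2 lower in mid/hindgut. With scaling on hybridisation controls the foregut count was 16 higher and 2 lower, where the median of all genes was 0.62 in log2. Several genes, F2 and F2RL2 among them, entered these counts only through a later tissue. The list had 32 genes over the floor in foregut, 35 in mid/hindgut and 25 in early endoderm. Counting only genes that exceeded it in every tissue left 22. Of these 22, 7 were higher and 4 lower in foregut, and 4 were higher and 2 lower in mid/hindgut. F2, the thrombin precursor that SERPIND1 and SERPINE2 inhibit once it is active, was 40.2 in foregut and 177 in mid/hindgut, while early endoderm lay under the floor, so that mid/hindgut was at least 8.00-fold higher. F2 and SERPIND1 had the same order of tissues, with mid/hindgut highest and early endoderm below the floor. F10, the target of SERPINA10, was 45.8 in foregut and 41.6 in mid/hindgut, against 127 in early endoderm, 2.77-fold and 3.05-fold lower, with -0.89 in log2 in foregut when scaled on hybridisation controls. PROZ, which SERPINA10 needs as its cofactor, was not above the floor in any tissue.

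PLAU, the urokinase-type plasminogen activator, which SERPINE2 inhibits, was 161 in foregut and 396 in mid/hindgut, against 532 in early endoderm, 3.30-fold lower in foregut, although the median of its probe sets gave -0.27 in log2. PLAT, the tissue-type activator and target of SERPINI1, was near the floor in all tissues, at 34.0 in foregut, below the floor in mid/hindgut and at 26.8 in early endoderm. C1R, a target of SERPING1, was 267 in foregut, 308 in mid/hindgut and 220.2 in early endoderm. Among receptors and other inhibitors of clotting, F2RL2, a thrombin receptor, was 492 in foregut and 1130.1 in mid/hindgut, which with early endoderm under the floor made it at least 22.2-fold and at least 51.0-fold higher. TFPI2, an inhibitor of tissue factor and plasmin that is no serpin, was 847.5 in foregut and 1270.0 in mid/hindgut, against 115 in early endoderm, 7.40-fold and 11.1-fold higher. F3, tissue factor itself, stood out in foregut at 1580 against 162 in early endoderm, 9.73-fold higher, and at 272 in mid/hindgut.

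SERPINH1 stood beside a list of 27 measured collagens and collagen folding genes of which 9 were at least 2-fold higher and 1 lower in foregut than in early endoderm, with a median of 0.65. SERPINH1 itself was -0.18 in log2 in that comparison. COL1A1, the fibrillar collagen chain best known as its client, was 1000.2 in foregut and 61.0 in mid/hindgut, against 196 in early endoderm, 5.12-fold higher in foregut and 3.20-fold lower in mid/hindgut. PLOD1, a lysyl hydroxylase of procollagen, was 828 in foregut, 291 in mid/hindgut and 239 in early endoderm, 3.47-fold higher in foregut than in early endoderm and 2.85-fold higher than in mid/hindgut. SERPINH1 thus lay within 2-fold between tissues in which COL1A1 was 16.4-fold apart, foregut and mid/hindgut. COL1A2, another collagen chain of the list, was 1011 in foregut and 312 in mid/hindgut, against 1957 in early endoderm, where it was highest. Between foregut and mid/hindgut COL1A2 was 3.24-fold apart, or 0.89 in log2 by the median of its probe sets.

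Markers of other cell types also differed between these arrays. Their counts, here and in the next paragraph, stand beside the shares over all genes. Against early endoderm these were 10.6% higher and 6.49% lower in foregut, and 8.12% higher and 5.13% lower in mid/hindgut. Of 15 blood vessel endothelium markers, 13 were above the floor in foregut, 13 in mid/hindgut and 6 in early endoderm, with summed signals of 7446, 8861.5 and 343 in the same order, and CDH5 and TEK, which define endothelium, were below the floor in early endoderm. The 8 blood markers summed to 3285 in foregut, 5935 in mid/hindgut and 320 in early endoderm. The gut and lateral mesenchyme markers summed to 19086 in foregut, 10985.5 in mid/hindgut and 14995 in early endoderm, of which FN1, encoding fibronectin, made up 10037, 6844 and 8262. Of 16 measured mesenchyme markers 9 were higher and 1 lower in foregut than in early endoderm, with a median log2 difference of 1.60, and of 14 in mid/hindgut 6 were higher and 4 lower, at a median of -0.07. Several of these were measured only through the later tissue. Of the 7 markers above the floor on all 3 arrays, 3 were higher and 0 lower in foregut, at a median of 0.28. In mid/hindgut 2 of those 7 were higher and 2 lower, at a median of -0.57. In foregut MMP2 was at least 35.2-fold, POSTN at least 16.2-fold and DCN at least 12.5-fold higher than in early endoderm, where none of these exceeded the floor. PDGFRA was the lower gene in foregut, at -3.16 in log2, and was -2.77 in mid/hindgut. The others lower in mid/hindgut were COL1A2, TWIST1 and COL1A1, at -2.65, -2.48 and -1.68 in log2.

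The array holds 13 macrophage and leukocyte markers, of which 7 exceeded the floor in foregut, 6 in mid/hindgut and 5 in early endoderm, with sums of 674.5, 1077 and 832. PTPRC, SPI1 and LYZ were below the floor in every tissue. CSF1R was above it in all, at 58.85 in foregut, 26.3 in mid/hindgut and 59.2 in early endoderm. Its log2 difference for mid/hindgut against early endoderm was -1.17, or 0 by the median of its probe sets. Of the 7 measured in each comparison with early endoderm, 1 was higher and 2 lower in foregut, and 1 was higher and 3 lower in mid/hindgut, with medians of 0.27 and -0.60. CD74, the invariant chain of antigen presentation, was 150.4 in foregut and 145 in mid/hindgut, against 477 in early endoderm. CYBB, a subunit of the phagocyte oxidase, was 25.5 in foregut and below the floor in mid/hindgut, against 97.2 in early endoderm. Both CD74 and CYBB were highest in early endoderm, and with the higher floor CYBB came to -0.68 in log2 in both comparisons. LY86, the higher gene of this list, went the other way, at 1.90 in log2 in foregut and 3.51 in mid/hindgut. The yolk sac or hypoblast markers summed to 3144 in foregut, 8237 in mid/hindgut and 5579 in early endoderm, and AMN and VIL1 were below the floor in all. TTR made up most of the sum in mid/hindgut, and APOA1 most of that in early endoderm. Of the 7 measured in each comparison with early endoderm, 1 was higher and 2 lower in foregut, and 3 were higher and 2 lower in mid/hindgut. The lower genes were APOA1, at 990.3 in foregut and 1244 in mid/hindgut against 3305 in early endoderm, and HNF4A, which in foregut did not exceed the floor and read 43.1 in mid/hindgut against 86.6 in early endoderm. The HNF4A call in mid/hindgut, at 2.01-fold, was lost under 4 alternatives. The higher genes were TTR, at 1.69 in log2 in foregut and 5.75 in mid/hindgut, and in mid/hindgut also APOB and FGA. These were at least 1.76 and at least 1.40 in log2 higher, although with the higher floor APOB came to 0.31. The definitive and gut endoderm markers summed to 16037 in foregut, 19163 in mid/hindgut and 26975 in early endoderm. Of 10 measured in foregut against early endoderm 2 were higher and 3 lower, and of 9 in mid/hindgut 3 were higher and 2 lower. In foregut CXCR4 was 5.44-fold and SOX17 11.1-fold lower than in early endoderm, while CDH1 was 2.67-fold and CLDN3 2.75-fold higher. GATA6 was the other lower gene in foregut, at -3.03 in log2. In mid/hindgut CXCR4 and GATA6 were lower, at -2.66 and -1.44 in log2. The higher genes there were SHH, at least 3.03 in log2, CDH1 at 1.29 and CLDN3 at 1.05, or 0.79 for CLDN3 without scaling. The part of these cells in the serpin and cathepsin differences was not tested.

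A list for uptake of yolk and at the apical surface was also read, which besides receptors holds carriers and plasma proteins such as TTR and APOH. Of 10 measured in foregut against early endoderm 1 was higher and 3 lower, and of 13 in mid/hindgut 4 were higher and 1 lower. Over all genes 10.6% were higher and 6.49% lower in foregut, and 8.12% higher and 5.13% lower in mid/hindgut. The 1 of 10 higher in foregut was near that share. LRP2, the endocytic receptor megalin, was 164 in foregut and 272 in mid/hindgut, against 455 in early endoderm, 2.78-fold lower in foregut, or -0.89 in log2 when hybridisation controls set the scale. RBP4A, a retinol-binding protein gene, was 43.0 in foregut and 2119.5 in mid/hindgut, against 2649 in early endoderm, 61.6-fold lower in foregut. TTR, the carrier transthyretin, was 281.5 in foregut and 4718 in mid/hindgut, against 87.5 in early endoderm, 3.22-fold and 53.9-fold higher, with 0.84 in log2 in foregut by the median of its probe sets. APOH, a plasma glycoprotein, was 61.3 in foregut and 1748 in mid/hindgut, against 50.0 in early endoderm, 35.0-fold higher in mid/hindgut. The largest differences of the list thus ran in both directions. CUBN, the partner receptor of LRP2, was 38.2 in foregut, 51.6 in mid/hindgut and 32.1 in early endoderm, within 2-fold.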

How the data were processed

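Total RNA of 5 µg per pooled sample was labelled for each array. The authors deposited MAS5 signal intensities, on a linear scale, per the submitters' processing notes. The MAS5 version is not given in the sources used here. The arrays' 2% trimmed means were 155 in foregut, 159.8 in mid/hindgut and 192 in early endoderm; differing by more than 10%, they were brought to a common mean with the factors 1.09, 1.06 and 0.881. The floor of 22.1 was set at the 40th percentile over 37693 chicken probe sets. In foregut, mid/hindgut and early endoderm 2.76%, 2.18% and 1.31% of viral probe sets lay above it.

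The platform annotation gave 1 gene for 27166 chicken probe sets and several for 177, which were left out; 11180 probe sets are not listed there. Symbols were updated through gene identifiers (26851 found in the GRCg7b gene table). Each gene was represented by its probe set of highest mean log2 signal after flooring; 7 of the 27 genes have more than 1. Differences are log2 differences of floored signals, computed with Python 3.11.15, numpy 2.4.6 and pandas 2.3.3 and tested on simulated data. With 1 array per group there was no test.

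The genes, the 13 lists of related genes and markers, and the 9 alternatives were chosen with earlier results of these data known. Lists held 305 symbols, of which 256 were matched on the array. All 27 genes are accounted for; from each list up to 4 genes per direction with the largest differences could be named, and known partners of a serpin or cathepsin (GLB1, CSTB, CST3, PROZ, PLAT, C1R, CUBN) were named after their values were seen. The hybridisation controls were 18 bacterial and phage probe sets. The alternatives changed the scaling (none, quantile, hybridisation controls), the floor (20th or 60th percentile, none, or above it on all arrays) and the choice of probe sets (their median, or none that may bind several transcripts). Sequences were not used here.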

Additional observations from a re-analysis of the deposited data

How the results depend on the processing

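Over the 9 alternatives, 41 of 54 counts of serpins and cathepsins at least 2-fold apart stayed within 1.5 times the reported count. In foregut against early endoderm, 0 genes higher became 1 after quantile normalization, with a floor at the 20th percentile, without a floor and without probe sets that may bind several transcripts, and 5 with scaling on hybridisation controls; 4 lower became 2 with that scaling and 2 without those probe sets, where LGMN and CTSC have no value. In mid/hindgut against early endoderm, 3 higher became 1 with a floor at the 60th percentile and 1 among genes above the floor on all arrays, since SERPINB1 and SERPIND1 are at the floor in early endoderm. In foregut against mid/hindgut, 0 higher became 3 with scaling on hybridisation controls and 1 without those probe sets; 3 lower became 1 with that scaling and 5 when the floor was at the 20th percentile. SERPINF1 reversed to 2.19 in log2 there without probe sets that may bind several transcripts, which leaves the other probe set. Of 468 single-gene values, 416 moved by less than the technical spread, 51 by more and 1 reversed. A reversal was counted only where the reported difference was at least 2-fold. Several smaller differences also changed sign, among them those of SERPINH1 in all 3 comparisons. Scaling moved the median of all genes to 0.62 (hybridisation controls) and -0.21 (no scaling) in foregut against early endoderm, to -0.22 (no scaling) in mid/hindgut against early endoderm and to 0.60 (hybridisation controls) in foregut against mid/hindgut. No paired analysis was possible because each group is 1 array, and for the same reason no replicate could be left out.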

Other observations

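Several serpins of the chicken carry symbols outside the names used above, and 8 of them were on the array. Of these, 3 were above the floor on at least 1 array, all close to it. AGT, angiotensinogen, a serpin that serves as a hormone precursor, reached 26.2 in mid/hindgut. OVALX, a relative of ovalbumin, was 22.9 in foregut and 27.2 in mid/hindgut. SPIA5, which lies near SERPINA10 in the current gene table, was 22.5 in foregut and 25.3 in mid/hindgut. OVAL, the egg-white protein ovalbumin, OVALY, SPIA1, SPIA3 and SPIA4 were below the floor on all 3 arrays. The SPIA genes were added after the values were seen.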
